A study of Homo sapiens with 6 samples.

Results

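The genes described are 8 of the 58219 gene identifiers counted, chosen by name: the ADAM protease genes ADAM9, ADAM10, ADAM12, ADAM15, ADAM17 and ADAM19, and the iRhom genes RHBDF1 and RHBDF2. All 8 were matched to an identifier, and all 8 had enough reads to be tested. They were measured in SNU-387, an established human cell line that the labels describe as a liver tumour, a pleomorphic hepatocellular carcinoma. One group of 3 libraries (shNT) came from cells made to express a non-target short hairpin RNA stably, and the other 3 libraries (shYES1) from cells stably expressing a short hairpin RNA against YES1, a SRC-family tyrosine kinase. Both groups therefore carry a hairpin and differ in its target. The hairpin sequence, the number of hairpins, whether a line is 1 clone, and whether the 3 libraries of a group are separate cultures are not given in the labels. The p-values therefore measure only the spread between these libraries, which may be technical, and lower YES1 cannot be told apart from other effects of the YES1 hairpin.

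ADAM proteases are membrane-anchored metalloproteases, several of which cut other membrane proteins close to the cell surface and release their outer parts, a step called ectodomain shedding. ADAM17 is the main sheddase of tumour necrosis factor and of several ligands of the EGF receptor, and ADAM10 starts the cleavage of Notch receptors, cadherins and the amyloid precursor protein. The iRhoms are rhomboid proteins without protease activity that carry ADAM17 out of the endoplasmic reticulum and support it at the cell surface.

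Reads assigned to genes on the transcript strand numbered 11290889 to 18944148 per library. YES1, which checks the labels, measured 177.7, 180.9 and 179.9 CPM (normalised read counts, scaled to a common library total) in shNT and 42.9, 43.3 and 46.0 CPM in shYES1, a log2 fold change of -2.02 (edgeR adjusted p = 7.93e-40). Of 12 hepatocyte marker genes 3 had enough reads to be tested, TTR, HNF4A and GPC3 had no read in any library, and the 12 summed to 22.2 to 24.9 CPM in shNT and 21.3 to 23.2 CPM in shYES1. The 5 immune markers summed to at most 1.62 CPM in any library, with CD3E at 0, and the 4 endothelial markers to 13.9 to 15.1 CPM in shNT and 11.8 to 13.3 CPM in shYES1. The 6 mesenchymal markers summed to 30648 to 33536 CPM in shNT and 22502 to 22612 CPM in shYES1, 4 of them called higher and 2 lower, and their part in the members' changes was not tested. In bulk RNA of this kind, fewer cells of a type and less RNA per cell cannot be told apart.

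The members split evenly between the directions, and the size of their changes ran from 1.08-fold to 17.3-fold. ADAM9 fell by far the most, ADAM10, ADAM12 and ADAM17 fell by less, ADAM19 more than doubled in level, RHBDF1 and RHBDF2 rose, and ADAM15 rose slightly. All 8 passed an adjusted p of 0.05 in edgeR's quasi-likelihood test, 4 higher and 4 lower in shYES1, and in all 8 the CPM values of the groups did not overlap. Most genes did the same: 65.3% of the 14239 tested genes were called, 32.5% higher and 32.8% lower, and 67.9% had groups that did not overlap. Among the 10608 tested genes that averaged 5 CPM or more, 75.0% were called, so that being called sets the members little apart. By size, the change of ADAM9 exceeded that of 99.9% of all tested genes and the change of ADAM19 that of 94.0%. The other members were more ordinary: 72.5% for RHBDF2, 70.4% for RHBDF1, 50.4% for ADAM12, 40.6% for ADAM10, 21.3% for ADAM15 and 20.3% for ADAM17. The median log2 fold change was 0.00 over the members and 0.00 over all genes tested. Over all genes tested, the direction of small changes depends on how the libraries are scaled, although no member changed direction under any setting. All genes split into 4623 higher and 4676 lower with TMM scaling, 5799 and 3762 with library size alone, and 3553 and 5717 with scaling on the genes whose 3' UTR lacks the sequence CCTTTC, a sequence taken up after the members' values.

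**Figure D1:**
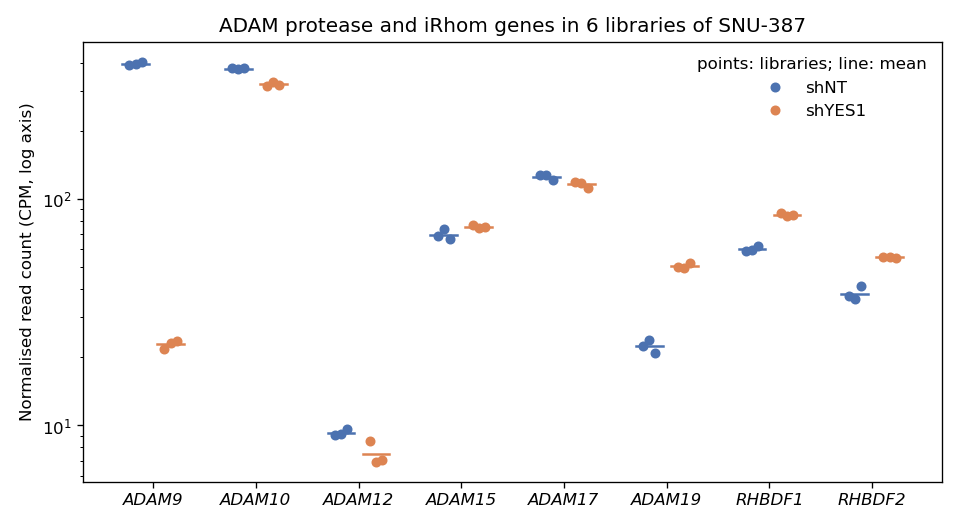
Normalised read counts (CPM, log axis) of the 8 genes in each library, with shNT in blue, shYES1 in orange and lines at the group means. ADAM9 lies between 390.1 and 401 CPM in shNT and between 21.8 and 23.5 CPM in shYES1, while the other genes stay within the same order of magnitude.

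ADAM9 (ENSG00000168615.11, GRCh38 chromosome 8, 38996869 to 39105144, plus strand) encodes a widely expressed ADAM with an active protease site, also known as meltrin gamma. Its level was 390.1, 396 and 401 CPM in the shNT libraries and 21.8, 23.2 and 23.5 CPM in the shYES1 libraries. The shNT libraries lay close together, and every shYES1 library lay far below all of them. The means of 395.6 ± 5.54 and 22.8 ± 0.907 CPM (SD, n = 3 each) differ 17.3-fold, a log2 fold change of -4.12 (SE 0.0382, edgeR adjusted p = 9.07e-52). The level fell by 94.2%. The shYES1 values rest on 271 to 460 reads per library, so the remaining level was measured and not merely undetected. No tested gene averaging 5 CPM or more had a more negative fold change. For comparison, the hairpin's labelled target YES1 kept 44.1 ± 1.70 of 179.5 ± 1.65 CPM.

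ADAM9 was set against each relative within a library, as the log2 ratio of their reads, which does not depend on library scaling. Against ADAM10 the ratio averaged 0.07 in shNT, which means similar numbers of reads, and -3.81 in shYES1, a difference of -3.88. Against ADAM17 it went from 1.66 to -2.35, and against ADAM15 from 2.51 to -1.72. The reads of ADAM9 outnumbered those of all 7 relatives in the shNT libraries and those of ADAM12 alone in the shYES1 libraries. Against ADAM12 the ratio averaged 5.41 and 1.60, the smallest difference of the 7 at -3.80. Against ADAM19 it averaged 4.14 and -1.15, the largest difference at -5.29, or 39.0-fold. The iRhom genes lay between, with differences of -4.62 for RHBDF1 and -4.65 for RHBDF2. In all 7 relations the 3 shNT ratios lay above the 3 shYES1 ratios, and each gave p = 0.1 in a two-sided exact permutation test (0.1 after Benjamini-Hochberg adjustment over the 7), the smallest value that 3 libraries against 3 allow.

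**Figure D2:**
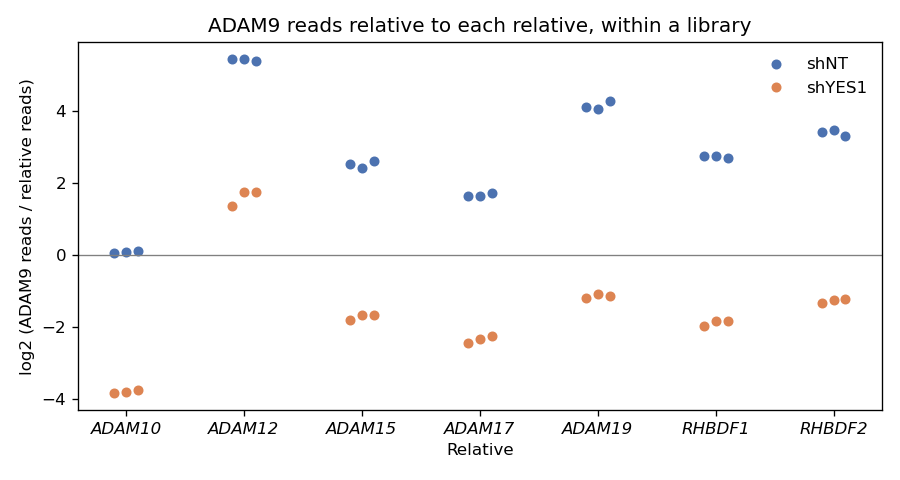
The log2 ratio of ADAM9 reads to the reads of each relative, 1 point per library, with shNT in blue and shYES1 in orange. Every shNT point lies above 0, and the shYES1 points lie below 0 for all relatives but ADAM12.

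To compare levels between genes, CPM were divided by the length of each gene's annotated exons in kilobases. On this scale ADAM9 stood first in shNT at 57.2 ± 0.801 CPM per kb (SD, n = 3), followed by ADAM10 at 23.3 ± 0.0908, RHBDF1 at 12.2 ± 0.384, ADAM17 at 11.7 ± 0.322, ADAM15 at 10.6 ± 0.596, RHBDF2 at 5.51 ± 0.392, ADAM19 at 2.91 ± 0.195 and ADAM12 at 0.943 ± 0.0351. In shYES1 ADAM10 stood first at 19.8 ± 0.426 CPM per kb, then RHBDF1 at 17.3 ± 0.299, ADAM15 at 11.4 ± 0.145, ADAM17 at 10.8 ± 0.356, RHBDF2 at 7.99 ± 0.0607, ADAM19 at 6.56 ± 0.197, ADAM9 at 3.30 ± 0.131 and ADAM12 at 0.763 ± 0.0935. ADAM9 thus went from the first to the seventh place, ADAM12 stayed last, and no neighbours in either order overlapped between libraries. The order of the middle places depends on the length used. With the length of the transcript with the longest coding sequence in place of all exons, ADAM9 was again first in shNT and seventh in shYES1, but RHBDF1 fell behind ADAM17 and ADAM15 in shNT, and in shYES1 the values of RHBDF1 and ADAM10, of ADAM17 and ADAM15, and of RHBDF2 and ADAM19 overlapped.

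Summed over the 6 ADAM genes, the level was 106.6 ± 0.889 CPM per kb of exon in shNT and 52.7 ± 0.317 in shYES1. ADAM9 made up 53.7% ± 0.716 of that sum in shNT and 6.26% ± 0.258 in shYES1 (SD, n = 3). Without ADAM9, the other 5 summed to 49.4 ± 0.949 CPM per kb in shNT and 49.4 ± 0.363 in shYES1. These sums use TMM-scaled CPM, and sums with other library scalings were not made. Within the sum, the share of ADAM10 was 21.9% in shNT and 37.6% in shYES1, and that of ADAM15 was 9.92% and 21.7%. The share of ADAM17 was 11.0% and 20.5%, and that of ADAM19 was 2.73% and 12.5%. On this scale the sums of the 5 genes overlapped between the groups, at 48.5 to 50.4 and 49.0 to 49.7 CPM per kb; the difference was not tested. With the other transcript lengths the 5 genes summed to 93.1 ± 2.30 and 96.3 ± 0.713 CPM per kb, with every shYES1 library above every shNT library, and ADAM9 made up 52.5% and 5.82% of all 6.

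**Figure D3:**
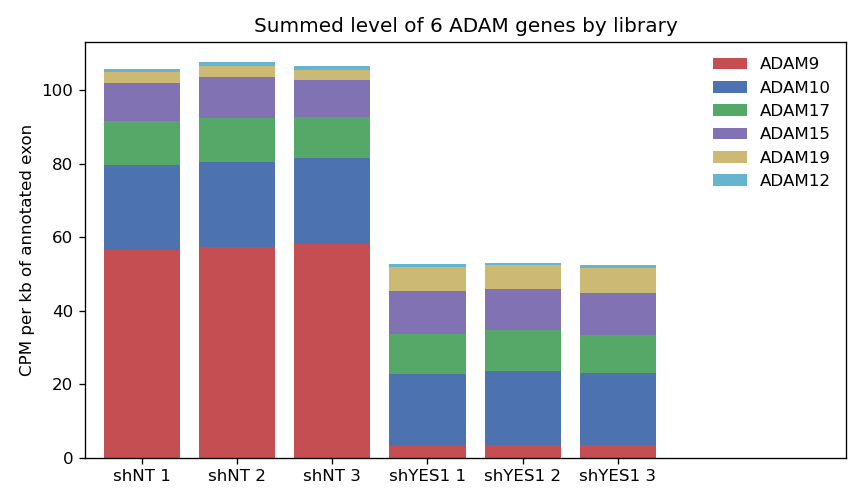
CPM per kilobase of annotated exon of the 6 ADAM genes, stacked for each library. The ADAM9 segment takes up most of each shNT bar and little of each shYES1 bar. With TMM scaling and this length, the other 5 segments add up to 49.4 on average in both groups.

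ADAM10 (ENSG00000137845.14, chromosome 15, 58588807 to 58749978, minus strand) measured 377, 375 and 378 CPM in shNT and 315, 328 and 318 CPM in shYES1. The shNT libraries were nearly equal, and all shYES1 libraries lay below them. With edgeR, ADAM10 was 1.18-fold lower, at a log2 fold change of -0.23 (SE 0.0258, adjusted p = 4.83e-11). ADAM17 (ENSG00000151694.12, chromosome 2, 9488486 to 9556732, minus strand) measured 127, 128 and 122 CPM in shNT and 119, 118 and 112 CPM in shYES1. The highest shYES1 library lay just under the lowest shNT library. In edgeR it changed by -0.11 on the log2 scale (SE 0.0343, adjusted p = 0.00355), which was -0.02 with library-size scaling (adjusted p = 0.693) and -0.08 without the third shYES1 library (adjusted p = 0.0698). ADAM17 exons share 1465 bases with IAH1 and AC073195.1 on the opposite strand, whose reads the strand-specific counts leave out. With unstranded counts the change was -0.10 (edgeR adjusted p = 0.0163).

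ADAM12, ADAM15 and ADAM19 are close relatives of ADAM9 whose cytoplasmic tails hold proline-rich stretches. ADAM19 (meltrin beta, ENSG00000135074.15, chromosome 5, 157395534 to 157575775, minus strand) measured 22.5, 23.9 and 20.9 CPM in shNT and 50.04, 49.4 and 52.3 CPM in shYES1. All 3 shYES1 libraries lay above all shNT libraries, the widest separation upward among the members. Its mean went from 22.5 ± 1.504 to 50.5 ± 1.52 CPM (SD, n = 3), 2.27-fold higher, with a log2 fold change of 1.18 (SE 0.0569, edgeR adjusted p = 3.14e-23). ADAM19 exons share 62 bases with CYFIP2 on the opposite strand, whose reads the strand-specific counts leave out.

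ADAM15 (metargidin, ENSG00000143537.13, chromosome 1, 155050566 to 155062775, plus strand) measured 68.5, 74.0 and 66.4 CPM in shNT and 76.4, 74.5 and 75.2 CPM in shYES1. The second shNT library came close to the shYES1 libraries, and the rise was small, with a log2 fold change of 0.12 (SE 0.0413, edgeR adjusted p = 0.0111). The call was lost with DESeq2 (adjusted p = 0.0623), with scaling on genes without CCTTTC (log2 fold change 0.03, adjusted p = 0.609) and without the third shNT library (0.08, adjusted p = 0.121). ADAM15 exons share 306 bases with DCST1 on the same strand, where reads can be lost as ambiguous. ADAM12 (meltrin alpha, ENSG00000148848.14, chromosome 10, 126012381 to 126388455, minus strand) measured 9.05, 9.16 and 9.69 CPM in shNT and 8.58, 6.93 and 7.05 CPM in shYES1. The first shYES1 library lay nearer to the shNT libraries than to the other shYES1 libraries, and each value rests on 81 to 153 reads. In edgeR it changed by -0.31 on the log2 scale (SE 0.108, adjusted p = 0.0119), a call that was lost when DESeq2 was used (adjusted p = 0.0793), with scaling by library size (0.0840), without the third shNT library (0.0564) and without the third shYES1 library (0.0868).

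RHBDF1 encodes iRhom1 and RHBDF2 encodes iRhom2, the partners that ADAM17 needs for its maturation. RHBDF1 (ENSG00000007384.15, chromosome 16, 58059 to 76355, minus strand) measured 58.7, 59.4 and 62.3 CPM in shNT and 86.7, 83.7 and 85.2 CPM in shYES1. RHBDF2 (ENSG00000129667.12, chromosome 17, 76470891 to 76501790, minus strand) measured 37.2, 36.0 and 41.2 CPM in shNT and 55.7, 55.3 and 54.9 CPM in shYES1. Both were higher in every shYES1 library than in any shNT library. The log2 fold changes were 0.50 for RHBDF1 (SE 0.0400, edgeR adjusted p = 2.55e-15) and 0.53 for RHBDF2 (SE 0.0501, edgeR adjusted p = 5.99e-13), 1.42-fold and 1.44-fold. The ratio of RHBDF2 to RHBDF1 reads did not separate the groups: its log2 averaged -0.66 ± 0.0624 in shNT and -0.62 ± 0.0225 in shYES1 (SD, n = 3), a difference of 0.04 with p = 0.5 in the two-sided exact permutation test. ADAM17 itself, the client of both, was 1.08-fold lower in the same libraries.

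**Figure D4:**
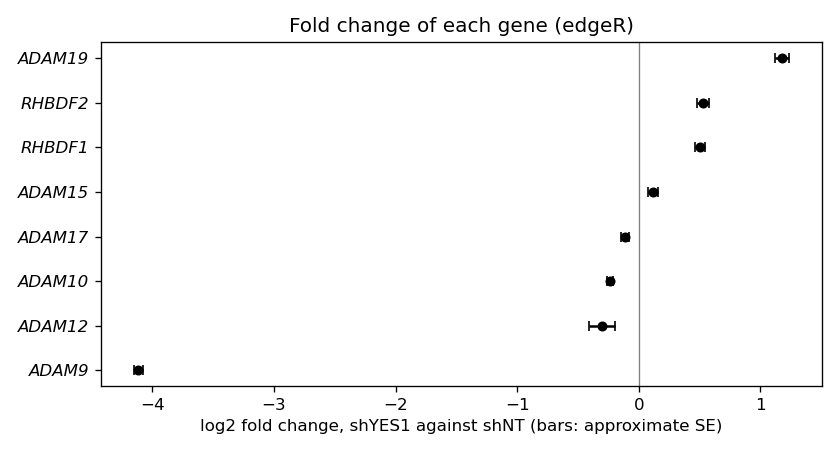
Log2 fold change of each gene, shYES1 against shNT, from edgeR, with bars of 1 approximate standard error. ADAM9 stands at -4.12, ADAM19 at 1.18, and the other 6 genes between -0.31 and 0.53.

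Earlier results of these data had singled out the sequence CCTTTC in 3' UTRs as more frequent in transcripts lower in shYES1, so its presence here is a description and supports nothing. It was searched on the transcript strand of every 3' UTR that GENCODE release 29 annotates on GRCh38, together with ACCTTTCA, a longer form that contains it and was chosen after the data were seen. The sequence CCTTTC was present in 48.3% of the 11920 tested genes with a 3' UTR of at least 50 bases, and ACCTTTCA in 4.67%. ADAM9 held CCTTTC at 3 positions, 2 of them as ACCTTTCA, at bases 81, 656 and 1172 of a 1301-base 3' UTR. That 3' UTR belongs to 1 of its 3 coding transcripts with a 3' UTR, the one with the longest coding sequence. The longest 3' UTR of ADAM9, of 1922 bases, holds no match. Among the relatives, ADAM10 held CCTTTC at 4 positions, ADAM12 at 5 and ADAM19 at 6, none of them in the longer form. ADAM15, ADAM17, RHBDF1 and RHBDF2 held neither. Some matches outside ADAM9 share 1 of the flanking A bases of the longer form. Printed here are the 4 with the leading A and then 2 of those with the trailing A. A further ADAM19 match with the trailing A, at chr5:157478999-157479004, is not printed. Each is given with 10 bases on either side, 5′ to 3′ on the minus strand with CCTTTC in capitals. ADAM12 and ADAM19 hold matches of both kinds, and ADAM10 holds those with the leading A.
ADAM10 chr15:58596874-58596879: aatcaatttaCCTTTCtgttacgatg
ADAM10 chr15:58593070-58593075: ttgtaacccaCCTTTCtcatttaatg
ADAM12 chr10:126013702-126013707: catctgtttaCCTTTCcctatcaccc
ADAM19 chr5:157479084-157479089: ccattccccaCCTTTCctgtggccca
ADAM12 chr10:126041800-126041805: aaaagtctggCCTTTCactgagcctc
ADAM19 chr5:157477968-157477973: gccatagattCCTTTCagccttgctg

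Across all tested genes, those with CCTTTC had a median log2 fold change of -0.08 (5756 genes) and those without it 0.09 (6164 genes), and 43.6% and 25.9% were called lower. Of the 557 genes with ACCTTTCA, 60.3% were called lower, 18.5% higher, and 18.3% were at least 2-fold lower, against 5.58% of the 11363 without it. Both sequences were chosen with results of these same data known, and ADAM9 is itself among the 557. The higher shares called lower are therefore a description and support nothing. A gene counted as holding a sequence if any of its annotated 3' UTRs held it. The length and number of a gene's 3' UTRs were not taken into account. The matches of ADAM19 all lie in 1 of its 3 coding transcripts with a 3' UTR, and its transcript with the longest coding sequence, whose 3' UTR has 399 bases, holds none. Counts of reads per gene do not tell apart the transcripts of ADAM19, nor those of ADAM9.

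The 5 genes whose centred log2 CPM over the 6 libraries lay nearest to that of ADAM9, among 10607 genes averaging 5 CPM or more, were ERLIN1, AK4, TLCD3A, HAPLN1 and SAA2. ERLIN1, which encodes a lipid raft protein of the endoplasmic reticulum, was nearest, at a Euclidean distance of 0.321 and a log2 fold change of -3.91. AK4, a mitochondrial adenylate kinase, followed at a distance of 0.498 and a log2 fold change of -3.76. The other 3 lay at distances of 0.721 to 0.742, with log2 fold changes of -3.59 for TLCD3A, -3.54 for HAPLN1, a hyaluronan link protein, and -3.52 for SAA2, an acute phase protein. SAA2 is nearly identical to SAA1, so its reads are uncertain. With 2 groups, this measure mainly ranks genes by the size of their fall. No other member was among the 5.

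The list counts that follow stand beside 65.3% called over all genes tested, 32.5% higher and 32.8% lower. Among the 15 further ADAM genes listed, 4 had enough reads to be tested, 2 higher and 2 lower in shYES1. ADAM28 was the most abundant of these, at 47.2 ± 1.76 CPM in shNT and 30.4 ± 1.05 in shYES1 (log2 fold change -0.62, edgeR adjusted p = 1.59e-14). ADAM8 measured 5.80 and 4.35 CPM (-0.41, adjusted p = 0.0107 in edgeR), ADAM32 1.01 and 1.67 CPM, and ADAM21 0.266 and 0.804 CPM. ADAM21 had enough reads to be tested only through shYES1, the group where it was higher, so its call carries little weight. Some genes of the list too low to be tested also had groups that did not overlap, in both directions. Across the settings, 2 to 6 genes of the list were called. ADAM8 and ADAM32 lost their calls with DESeq2 and without the second shNT library, ADAM8 also with library-size scaling and without the first shYES1 library, and ADAM32 also without the third shYES1 library. Of the secreted ADAMTS proteases 10 of 19 were tested, 3 higher and 5 lower, with ADAMTS14 at a log2 fold change of 1.07 and ADAMTS16 at -1.06. Of the wider rhomboid family 11 of 12 were tested, 6 higher and 4 lower with a median of 0.31: RHBDL2, an active rhomboid protease, rose by 0.81 and RHBDD2 by 0.37 on the log2 scale, while RHBDD1, DERL2 and DERL1, which act in protein degradation at the endoplasmic reticulum, fell by 0.48, 0.33 and 0.26.

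The genes that traffic and activate the members were described next. FRMD8, which stabilises the complex of iRhom and ADAM17 at the surface, measured 17.5 ± 2.35 CPM in shNT and 15.2 ± 1.26 in shYES1 and was not called (log2 fold change -0.17, edgeR adjusted p = 0.068). It was called lower without the third shNT library (-0.28, adjusted p = 0.00648) and with scaling on genes without CCTTTC (-0.27, adjusted p = 0.00559). PACS2, a sorting protein that keeps ADAM17 at the surface, rose by 0.29 on the log2 scale (edgeR adjusted p = 5.28e-07).

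Of the 6 TspanC8 tetraspanins, the membrane proteins that escort ADAM10 to the cell surface, 5 were called higher and none lower. Over all genes tested, 32.5% were called higher and 32.8% lower. The median over the 6 tetraspanins was 0.64 (log2). TSPAN14 measured 49.6, 50.02 and 49.9 CPM in shNT and 100.5, 103.8 and 95.2 CPM in shYES1, with no overlap, a log2 fold change of 0.99. TSPAN17 rose by 0.77, and TSPAN5 and TSPAN15 by 0.51 each. TSPAN33 (0.91) was called on 6 to 19 reads per library and lost its call with DESeq2 (adjusted p = 0.0975), which left 4 called higher, and without the second shNT, the first shYES1 or the second shYES1 library (0.0654 to 0.0849). TSPAN33 had enough reads to be tested only through shYES1, the group where it was higher. TSPAN10 (-0.10, edgeR adjusted p = 0.819) was not called. ADAM10 was 1.18-fold lower in the same libraries.

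Proprotein convertases remove the inhibitory prodomain of most catalytically active ADAM proteases. FURIN, the best known of them, measured 146, 151 and 143 CPM in shNT and 365, 367 and 371 CPM in shYES1. Its shYES1 values were all far above its shNT values, 2.51-fold on average, with a log2 fold change of 1.33 (SE 0.0287, edgeR adjusted p = 5.33e-37). PCSK7 rose by 0.56 on the log2 scale. In all, 4 of the 6 tested convertases were called higher and none lower, where 65.3% of all genes tested were called, 32.5% higher. MBTPS1 was called at 0.08 (adjusted p = 0.0138 in edgeR), which scaling on genes without CCTTTC turned to -0.01 and which lost its call without the first shNT or the third shYES1 library.

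Among the metalloprotease inhibitors, TIMP3, the tissue inhibitor that blocks ADAM17, measured 908, 897 and 867.8 CPM in shNT and 487, 476 and 483 CPM in shYES1. The groups lay far apart, with a log2 fold change of -0.89 (SE 0.0248, edgeR adjusted p = 1.89e-32). TIMP2 rose from 795 ± 6.85 to 1098 ± 15.6 CPM (0.47), although its exons overlap CEP295NL on the same strand, and TIMP4 rose from 1.93 to 3.53 CPM. TIMP1, which inhibits ADAM10, measured 365 ± 16.4 and 366 ± 7.73 CPM (log2 fold change 0.00, edgeR adjusted p = 0.902). RECK, a membrane-anchored inhibitor, measured 54.9 ± 2.501 and 56.1 ± 0.897 CPM and was not called. With library-size scaling both were called higher, by 0.10 and 0.13, and with scaling on genes without CCTTTC TIMP1 was called lower, by -0.09.

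The cytoplasmic tails of ADAM9, ADAM12, ADAM15 and ADAM19 bind proteins with SH3 domains. Of 18 tested tail partners, 5 were higher, 9 lower and 4 not called, with a median of -0.15; YES1 is 1 of the 9. With library-size scaling 7 were higher and 7 lower (median -0.06). SNX9, a sorting nexin that binds ADAM9 and ADAM15, fell from 130 ± 3.18 to 60.0 ± 0.834 CPM, a log2 fold change of -1.11. SH3PXD2B, a podosome scaffold, fell by 1.49 on the log2 scale and MAD2L1, a spindle checkpoint protein that binds the tail of ADAM17, by 0.96, and the adaptors NCK2 and GRB2 rose by 0.63 and 0.29. SRC and FYN, kinases of the family of YES1 chosen after their values were seen, fell by 0.60 and 0.29. Disintegrin domains of ADAM proteases bind integrins, of which 4 of 8 tested genes were higher and 3 lower. ITGA5 measured 450 ± 8.21 CPM in shNT and 1209 ± 38.7 in shYES1 (1.43), and ITGA6, a subunit of a receptor for ADAM9, measured 434 ± 4.60 and 198 ± 1.56 CPM (-1.13). ITGB1, which pairs with both, measured 1973 ± 12.5 and 2043 ± 15.4 CPM and was not called (0.05, edgeR adjusted p = 0.0525). ITGB1 was called higher with RLE scaling (adjusted p = 0.0409), DESeq2 (0.0312), limma-voom (0.00721) and library-size scaling (0.15, adjusted p = 3.23e-07). With scaling on genes without CCTTTC it turned to -0.04 and was not called.

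**Figure D5:**
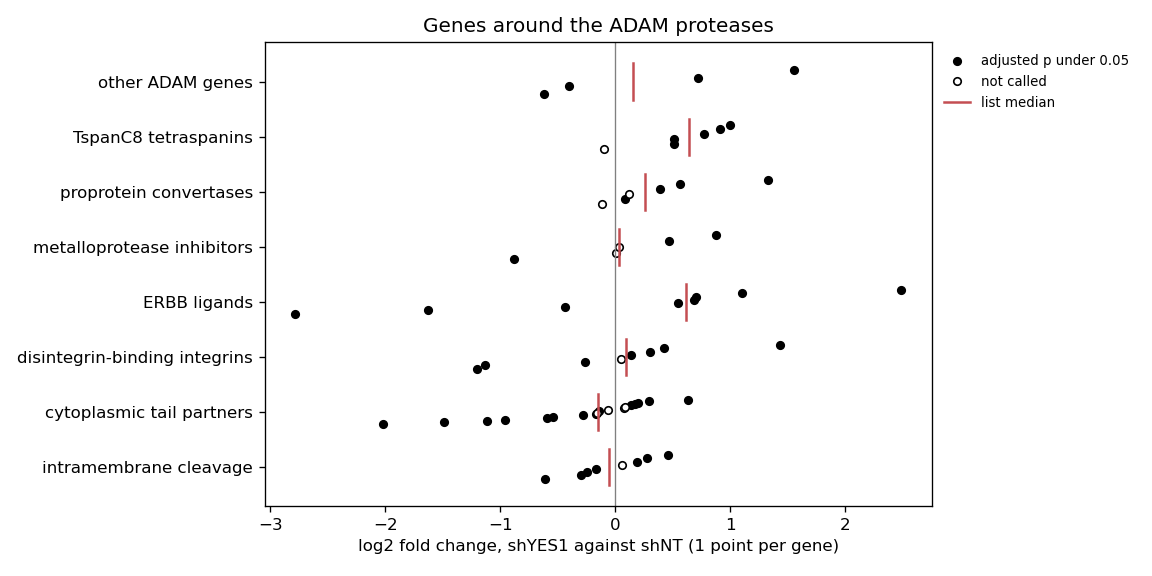
Log2 fold change, shYES1 against shNT, of each tested gene of 8 lists, with filled points for edgeR adjusted p under 0.05, open points for genes not called and red lines at list medians. TspanC8 genes and convertases hold called genes on the higher side only, while the other 6 lists hold called genes on both sides.

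The ERBB ligands, which ADAM17, ADAM10 and other ADAM proteases release from the membrane, were all called where tested, 5 of 8 higher and 3 lower. EREG measured 108, 104 and 106 CPM in shNT and 221, 227 and 231 CPM in shYES1, a log2 fold change of 1.10 (edgeR adjusted p = 6.20e-32). It was the most abundant ligand in both groups by read count, and its groups did not overlap. HBEGF, EGF and TGFA rose by 0.68, 0.70 and 0.55 on the log2 scale. NRG2 went from 0.164 to 1.01 CPM on 1 to 19 reads per library. It had enough reads to be tested only through shYES1, the group where it was higher, so its call carries little weight. With a filter of 1 CPM in 3 libraries, 7 ligands were called. AREG fell from 16.02 ± 1.02 to 5.12 ± 0.965 CPM (-1.63), BTC from 7.42 ± 0.815 to 1.02 ± 0.319 CPM (-2.79), and NRG1 by 0.44 on the log2 scale, a call lost without the third shNT library. Ligands that share ADAM17 as their sheddase thus moved in both directions.

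Of 47 tested genes for other proteins shed by ADAM proteases, 19 were higher, 19 lower and 9 not called, with a median of 0.03. The split was 23 higher and 16 lower with library-size scaling (median 0.13), and 17 higher and 23 lower with scaling on genes without CCTTTC (median -0.06). SDC4, a heparan sulfate proteoglycan, fell from 695 ± 23.8 to 140 ± 1.64 CPM (log2 fold change -2.32), NOTCH2 from 404 ± 21.4 to 114 ± 1.71 CPM (-1.82), the desmosomal cadherin DSG2 by 1.40 and the hyaluronan receptor CD44 by 1.12 on the log2 scale. CX3CL1, a membrane-bound chemokine, rose from 3.29 ± 0.269 to 12.2 ± 0.483 CPM (1.89), IL6R by 1.44, the sorting receptor SORL1 by 1.37 and the Notch ligand JAG1 by 1.36. PRNP, the prion protein gene and the most highly expressed of the list, measured 1316 ± 46.0 and 1238 ± 2.25 CPM (-0.09, edgeR adjusted p = 0.00158), which library-size scaling turned to 0.01.

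Of 5 other sheddases tested, 3 fell and 1 rose, beside 65.3% called among all genes tested. MMP14, a membrane-type matrix metalloprotease, fell from 521 ± 8.03 to 300 ± 8.92 CPM (-0.80), BACE1, the beta-secretase, from 60.0 ± 0.758 to 34.6 ± 1.05 CPM (-0.79), and BACE2 by 0.33 on the log2 scale, while MMP24 rose by 1.19 and MMP15 was not called. The proteases that cut the membrane stub left after shedding had 3 of 8 genes higher and 4 lower, all between -0.61 and 0.45. The counts were 1 higher and 4 lower with DESeq2 and with scaling on genes without CCTTTC, and 4 higher and 3 lower with library-size scaling. Among the subunits of gamma-secretase, APH1B and APH1A fell by 0.61 and 0.25, PSEN2 rose by 0.45, and NCSTN (0.06, edgeR adjusted p = 0.0627) was not called. PSENEN was called at 0.27 (edgeR adjusted p = 0.0217), but not with DESeq2 (0.0944), with scaling on genes without CCTTTC (0.13), or without the first shNT, the second shYES1 or the third shYES1 library (0.0625 to 0.114), and its exons share 285 bases with AD000671.1 on the same strand.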

How the data were processed

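The deposited values are whole-number read counts per gene, unstranded and for each strand, made by the authors with no normalization. By the submitters' processing notes, the files were made using STAR 2.5.1b and GRCh38, with Trimmomatic 0.35 and CASAVA 1.8.2; per the labels' protocols, poly(A) libraries were made with a KAPA stranded kit. No label names the annotation release. Reverse-strand counts were used, since they held 93.5% to 94.0% of stranded gene reads. The 4 entries naming no gene held 19.8% to 20.3% of reads and were left out. Of 58219 identifiers 57437 matched a symbol. Coordinates, exon lengths and 3' UTRs come from GENCODE release 29.

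In R 4.3.3, edgeR 4.0.16 (filterByExpr with a minimum count of 10 and a minimum total of 15, TMM, robust quasi-likelihood test) compared shYES1 with shNT over 14239 genes, with Benjamini-Hochberg adjustment over all of them and a threshold of 0.05. Standard errors of log2 fold changes are approximate. CPM values use TMM-scaled totals. Within-library ratios had 0.5 added to each count. The edgeR steps were run on simulated counts in which few genes changed, balanced between the directions. That setting does not check the scaling in these data, where 65.3% of tested genes were called. Alternatives used DESeq2 1.42.0, limma 3.58.1 with voom, RLE factors, library size alone, other low-count filters, unstranded counts, a replicate block, scaling on genes without CCTTTC, and each library left out.

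Members, lists and tests were chosen with earlier results of these data known. Named are all 8 members, YES1, the 5 genes nearest to ADAM9, any tested gene of lists with up to 8, and of longer lists up to 4 rises and 4 falls of at least 5 CPM without overlap plus the most abundant gene. Some genes that the rule names are not reported here.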

Additional observations from a re-analysis of the deposited data

How the results depend on the processing

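ADAM9, ADAM10, ADAM19, RHBDF1 and RHBDF2 kept their direction and call under every alternative run. ADAM12 was not called with library-size scaling (log2 fold change -0.21) or DESeq2 (-0.30), and ranged from -0.41 to -0.24 with each library left out. ADAM15 was not called with DESeq2 (0.12) or with scaling on genes without CCTTTC (0.025), and ranged from 0.080 to 0.16 with each library left out. ADAM17 was not called with library-size scaling (-0.016), and ranged from -0.14 to -0.082. The cause of these shifts and lost calls was not tested, also where 1 library is left out and fewer remain. Low read numbers limit ADAM12, TSPAN33, NRG2 and ADAM21.

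The sample numbers did not pair the libraries: deviations of same-numbered libraries correlated at 0.00786, 0.0238 and 0.0136. With the number as a replicate block, 9297 genes were called (4628 higher, 4669 lower), all 8 members were called, ADAM9 changed by -4.12 and ADAM19 by 1.18, and the block changed no member's call.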
